A study of Homo sapiens with 6 samples.

Results

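Integrins are the receptors by which epithelial cells hold on to the extracellular matrix. This account follows 10 of them at the mRNA level, the alpha chains ITGA2, ITGA3, ITGA5, ITGA6 and ITGAV and the beta chains ITGB1, ITGB4, ITGB5, ITGB6 and ITGB8. They were taken by name as the chains of keratinocytes and carcinoma cells, and all 10 were found among the 58825 genes of the count table. The cells were FaDu, a permanent line from a squamous cell carcinoma of the hypopharynx. RNA sequencing compared 3 libraries of FaDu cells with a short hairpin RNA against NSUN2 (shNSUN2) with 3 libraries of FaDu cells without a hairpin (FaDu). NSUN2 is an RNA methyltransferase that forms 5-methylcytosine. A non-targeting hairpin was not analysed here, so the loss of NSUN2 and the introduction of a hairpin cannot be told apart. The labels do not describe how the replicates of a group were obtained, so p-values measure the spread between libraries, which may be technical.

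An integrin is a pair of an alpha and a beta chain, and the pair decides the ligand. ITGB1 pairs with many alpha chains, among them ITGA2 in a collagen receptor, ITGA3 in a laminin receptor and ITGA5 in the classical fibronectin receptor. ITGB4 pairs with ITGA6 alone and anchors basal keratinocytes to laminin through hemidesmosomes. ITGAV joins ITGB5 in a vitronectin receptor, and ITGB6 or ITGB8 in receptors that activate latent TGF-beta. Free chains are largely kept inside the cell, and mRNA levels do not give the amount of receptor on the surface.

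The tails of both chains inside the cell carry motifs that link receptors to the cytoskeleton. The following coding stretches, read from the GENCODE 29 principal transcripts (GRCh38, sense strand, 5′ to 3′), are shown because they mark what the members share and how differently the same residues are spelled. In the alpha chains, the capitals are the 5 codons of the GFFKR motif next to the membrane, which was found in all 5.
ITGA3 (chromosome 17): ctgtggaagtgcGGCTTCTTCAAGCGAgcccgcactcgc
ITGA5 (chromosome 12): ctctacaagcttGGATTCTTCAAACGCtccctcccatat
ITGA2 (chromosome 5): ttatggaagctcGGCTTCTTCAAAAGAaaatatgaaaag
ITGA6 (chromosome 2): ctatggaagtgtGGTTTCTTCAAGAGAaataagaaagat
ITGAV (chromosome 2): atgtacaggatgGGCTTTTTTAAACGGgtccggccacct
In the beta chains, the capitals are the 4 codons of an NPxY motif (x for any residue), a docking site of talin and kindlin. Within the last 70 codons ITGB1 held 2 of them and ITGB5 and ITGB6 held 1 each, and none was found in ITGB4 or ITGB8. Only those codons were searched. They are a small part of the 5469 coding bases of ITGB4, where an earlier motif would be missed.
ITGB1 (chromosome 10), first motif: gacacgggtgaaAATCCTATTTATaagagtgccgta
ITGB1 (chromosome 10), second motif: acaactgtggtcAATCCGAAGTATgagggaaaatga
ITGB5 (chromosome 3): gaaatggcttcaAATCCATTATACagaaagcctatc
ITGB6 (chromosome 2): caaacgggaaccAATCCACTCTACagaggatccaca

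The spelling differed along the whole coding sequence. ITGB4 and ITGA3 ended 82.8% and 75.9% of their codons in G or C, ITGB5 69.8% and ITGA5 67.8%. The share was 47.9% in ITGB6 and 42.5% in ITGA6. It was lowest in ITGAV, ITGB8, ITGA2 and ITGB1, at 40.5%, 39.6%, 39.0% and 38.5%. The GC content of the longest transcript followed the same division, with 54.3% to 63.7% in ITGA3, ITGA5, ITGB4 and ITGB5 and 37.8% to 42.9% in the other 6 chains.

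The libraries held 53612358 to 72788971 estimated counts. Levels are given as CPM, the count of a gene relative to the scaled total of its library. NSUN2 had 50.4, 34.7 and 39.6 CPM in the shNSUN2 libraries and 169, 173 and 156 CPM in the FaDu libraries, a mean of 25.1% of the FaDu level (edgeR adjusted p = 0.000526). Squamous markers were present, at summed levels of 2236 to 2705 CPM in shNSUN2 and 4330 to 4404 CPM in FaDu. Of these 10 markers 8 fell and EPCAM, an adhesion molecule of simple epithelia, rose. For all marker lists, genes are counted as lower or higher at an edgeR adjusted p under 0.05. By that rule 9.97% of all tested genes were lower and 8.54% higher. Markers of other cell types were not all level. The prostate list, with 8 of 9 genes tested and NPY at 0 everywhere, summed to 38.6 to 61.3 CPM in shNSUN2 and 17.1 to 19.9 CPM in FaDu, with 4 genes higher and 1 lower. KLK3, a secreted prostate protease, had 14.03, 16.8 and 10.2 CPM in shNSUN2, against at most 0.16 CPM in FaDu. The endothelial list summed to 33.4 to 56.1 CPM in shNSUN2 and 6.46 to 8.12 CPM in FaDu. Of its 4 tested genes CDH5 was higher and ERG lower, with ERG at 0.22 to 0.61 CPM in shNSUN2 and 1.67 to 1.88 CPM in FaDu. In shNSUN2 most of the sum was CDH5, while PECAM1 was at most 0.27 CPM and EMCN was listed at 0 in all libraries. Leukocyte genes summed to 49.95 to 57.1 CPM in shNSUN2 and 44.4 to 63.8 CPM in FaDu, with PTPRC, MS4A1 and SPI1 among the genes at 0 in every library. Fibroblast genes summed to 6.56 to 11.85 CPM in shNSUN2 and 9.04 to 9.63 CPM in FaDu, with 1 of 5 tested genes higher, and FAP and POSTN at 0. Smooth muscle genes summed to 34.6 to 49.5 CPM in shNSUN2 and 39.4 to 45.5 CPM in FaDu, with 3 of 7 tested genes higher and 1 lower. Most of the sum was SMTN, which was highest in shNSUN2 replicate 3. MYH11, DES and ACTG2 had 8.29, 2.75 and 1.49 CPM in shNSUN2 replicate 1. In shNSUN2 replicates 2 and 3 they had at most 1.53, 0.46 and 0.36 CPM. Platelet genes summed to 1.27 to 2.19 CPM in shNSUN2 and 1.99 to 2.94 CPM in FaDu, with GP9 and PPBP at 0. Plasma cell genes summed to 226 to 271 CPM in shNSUN2 and 212 to 251 CPM in FaDu, most of it SDC1, which epithelial cells also express, and 4 of 6 tested genes were higher. The immunoglobulin genes IGKC and IGLC2 were detected in every shNSUN2 library and listed at 0 in every FaDu library. What part RNA of other cells had in the integrin results was not tested.

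Before any comparison, the levels of the chains were set side by side as CPM per kilobase of exonic length. The order of chains depends on the length used. Merged exons and longest transcript had 9802 and 5479 bases in ITGA3 and 7577 and 4996 in ITGA5. They had 7910 and 7869 bases in ITGA2 and 6761 and 5919 in ITGB4. In FaDu, ITGB1 was the most abundant chain at 95.5 ± 2.91 CPM per kilobase (SD, n = 3), followed by ITGA3 at 74.3 ± 4.61 and ITGB4 at 52.4 ± 2.63. A wide step separated these from ITGA6 at 19.1 ± 3.68 and ITGA5 at 14.6 ± 1.19 CPM per kilobase, whose libraries overlapped. ITGA2 at 9.41 ± 1.28 and ITGAV at 8.28 ± 0.509 CPM per kilobase also overlapped. ITGB5 followed at 5.66 ± 0.168 and ITGB6 at 4.25 ± 0.138 CPM per kilobase. ITGB8 closed the order at 0.284 ± 0.0404 CPM per kilobase, 0.297% of the level of ITGB1. The alpha chain pool was thus mostly ITGA3, and the beta chain pool mostly ITGB1 and ITGB4.

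In shNSUN2 the same 3 chains led. ITGB1 had 101 ± 15.8, ITGA3 45.2 ± 7.21 and ITGB4 38.8 ± 3.67 CPM per kilobase (SD, n = 3). By merged exonic length the libraries of ITGA3 and ITGB4 overlapped, which they did not in FaDu. The ranks below these 3 chains differed from FaDu by that length, and may not with another. ITGA2 at 10.8 ± 3.03 CPM per kilobase stood above ITGA5 at 7.18 ± 1.43, and ITGB5 at 6.76 ± 1.23 above ITGAV at 6.30 ± 1.49. From ITGA6 at 13.2 ± 2.75 CPM per kilobase down to ITGAV, the libraries of each chain overlapped those of the next in order.

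**Figure D1:**
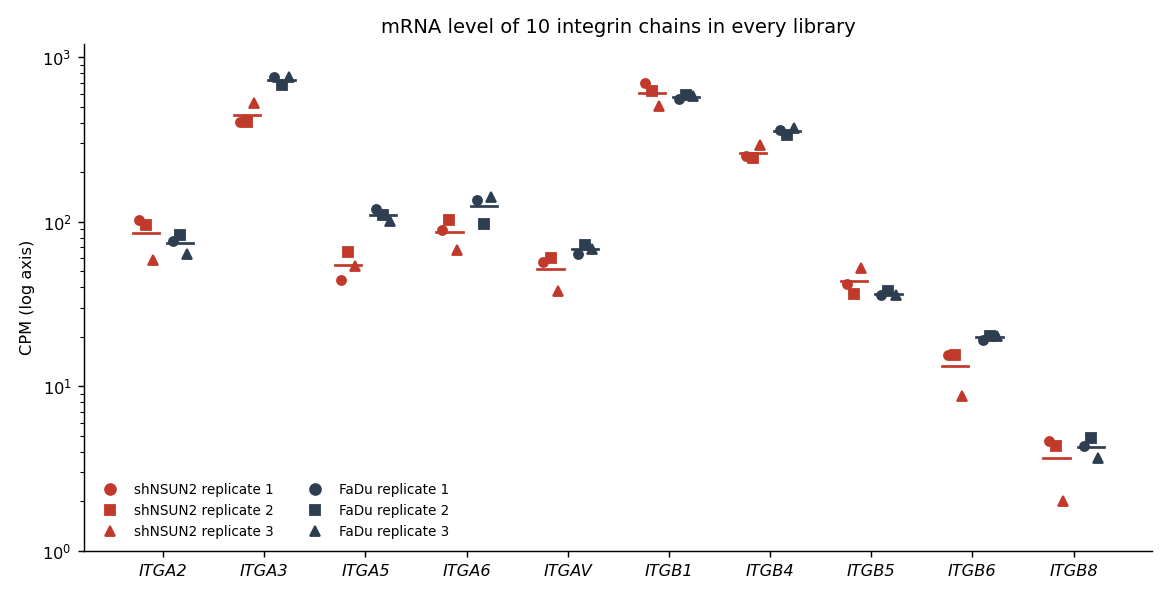
CPM of the 10 chains (log axis) in each of the 3 shNSUN2 and 3 FaDu libraries, with the group mean as a bar. The groups stand apart for ITGA3, ITGA5, ITGAV, ITGB4 and ITGB6, and shNSUN2 replicate 3 is the lowest library of its group for 6 chains.

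Replicate 3 of shNSUN2 stood apart from the other libraries of its group. It was the lowest library of its group for ITGA2, ITGA6, ITGAV, ITGB1, ITGB6 and ITGB8 and the highest for ITGA3, ITGB4 and ITGB5. Its log2 difference from the mean of replicates 1 and 2 ran from -1.16 in ITGB8 to 0.41 in ITGB5. Across the 10 chains that difference and the GC content of the transcript had a Pearson r of 0.904 and a Spearman rho of 0.782, as a description of chains measured in the same libraries. The same held less tightly across 19033 genes, where the difference of replicate 3 from replicate 1 had a Spearman rho of 0.421 with GC content and -0.253 with exonic length. Genes are not independent replicates, and what made this library differ was not tested. The coefficient of variation was 9.45% to 39.4% among the shNSUN2 libraries and 2.97% to 19.3% among the FaDu libraries.

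**Figure D2:**
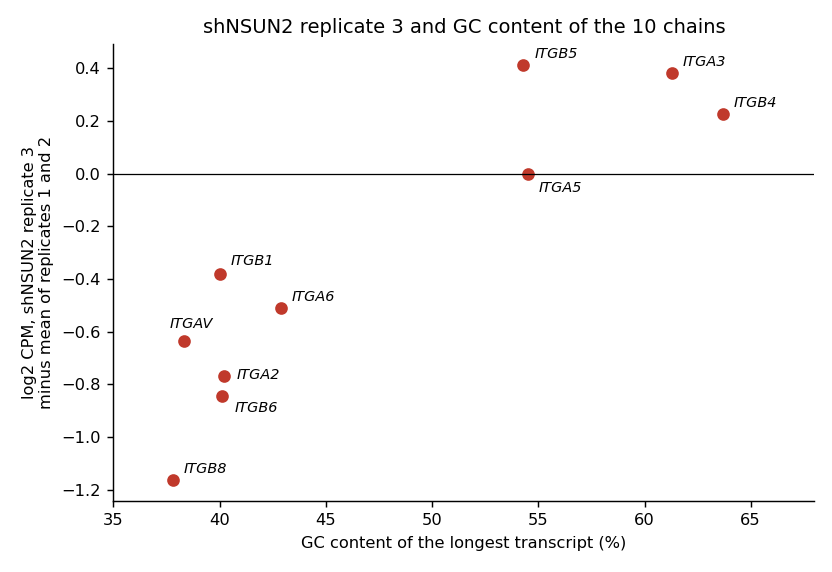
Difference in log2 CPM of shNSUN2 replicate 3 from the mean of replicates 1 and 2 (y axis) against GC content of the longest transcript in percent (x axis), 1 point for each chain. The 6 chains under 43% GC lie below 0, and ITGA3, ITGB4 and ITGB5 lie above it.

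The comparison of shNSUN2 with FaDu asks which of these chains change with NSUN2. Of the 10 chains 3 fell, the laminin receptor chain ITGA3, the fibronectin receptor chain ITGA5 and the hemidesmosome chain ITGB4, and none rose. Of all 19081 genes tested, 9.97% were lower and 8.54% higher by the same rule, an adjusted p of edgeR's two-sided test under 0.05. The median log2 fold change of the 10 chains was -0.41, against -0.0069 over all tested genes. In such bulk samples, fewer cells that carry a transcript and less of it per cell cannot be told apart. At an unadjusted p under 0.05 there were 5 chains, all lower, and none higher, where 17.3% of all tested genes were lower and 16.4% higher. The CPM of the groups did not overlap for 5 chains of 10, and for 42.3% of all tested genes. DESeq2, run as an alternative, called the same number of chains lower, 3, and none higher.

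ITGA5 had 43.95, 65.5 and 53.7 CPM in the shNSUN2 libraries, against 119, 110 and 101 CPM in the FaDu libraries. Every shNSUN2 library was well below every FaDu library. The shNSUN2 mean was 49.3% of the FaDu mean, with a log2 fold change of -1.02 (SE 0.17, edgeR adjusted p = 0.00648). Under the 14 alternative settings the log2 fold change lay between -1.17 and -0.88, and the adjusted p between 2.29e-06 and 0.0318. ITGA5 (ENSG00000161638) lies on chromosome 12 from 54395261 to 54419460 on the minus strand (GRCh38, as for the other chains).

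ITGA3 had 402, 401 and 524 CPM in the shNSUN2 libraries, against 755, 676 and 753 CPM in the FaDu libraries. The groups did not overlap, with replicate 3 the closest of the shNSUN2 libraries to FaDu. The mean fell to 443 ± 70.7 CPM in shNSUN2, against 728 ± 45.2 CPM in FaDu (SD, n = 3; log2 fold change -0.72, SE 0.14, edgeR adjusted p = 0.0116). Its difference between the group means was larger in CPM than for any of the other 9 chains. The call was narrowly missed without FaDu replicate 1 or 3, with edgeR adjusted p of 0.0504 and 0.0563. ITGA3 (ENSG00000005884) lies on chromosome 17 from 50055968 to 50090481 on the plus strand.

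ITGB4 had 252, 245 and 291 CPM in the shNSUN2 libraries, against 358, 335 and 370 CPM in the FaDu libraries. All 3 shNSUN2 libraries were lower, by a smaller fold than for ITGA3 and ITGA5. The shNSUN2 mean was 74.1% of the FaDu mean (log2 fold change -0.43, SE 0.11, edgeR adjusted p = 0.034). This call was kept without shNSUN2 replicate 3 and lost without any other single library. The edgeR adjusted p was 0.0982 and 0.0825 without shNSUN2 replicate 1 or 2, and 0.121, 0.0958 and 0.141 without FaDu replicate 1, 2 or 3. Over the 14 alternative settings the log2 fold change lay between -0.51 and -0.36. ITGB4 (ENSG00000132470) lies on chromosome 17 from 75721328 to 75757818 on the plus strand.

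The count of 3 chains therefore rested on single libraries. It was 1, 2 and 1 without FaDu replicate 1, 2 or 3, 2 without shNSUN2 replicate 1 or 2, and 3 without shNSUN2 replicate 3. The share of all genes called lower moved too, at 4.8%, 4.38% and 4.38% without FaDu replicate 1, 2 or 3 and 5.95%, 9.08% and 11.0% without shNSUN2 replicate 1, 2 or 3. The share called higher in the same order was 3.1%, 2.38%, 2.51%, 4.46%, 8.31% and 10.5%.

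The other 7 chains did not pass the test. ITGB1, the common partner, had 692, 625 and 505 CPM in the shNSUN2 libraries, against 555, 590 and 576 CPM in the FaDu libraries. The FaDu values lay inside the range of the shNSUN2 values, a log2 fold change of 0.08 with an SE of 0.13 (edgeR adjusted p = 0.71). Without shNSUN2 replicate 1 its sign turned, to -0.018, and without shNSUN2 replicate 3 it was 0.20. ITGB1 (ENSG00000150093) lies on chromosome 10 from 32900319 to 33005792 on the minus strand.

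ITGA6, the laminin chain shared by ITGB1 and ITGB4, had 89.1, 103 and 67.2 CPM in the shNSUN2 libraries, against 136, 96.9 and 141 CPM in the FaDu libraries. The groups overlapped because FaDu replicate 2 was low and shNSUN2 replicate 2 high. Its log2 fold change of -0.53 (SE 0.20, edgeR adjusted p = 0.107) was further from 0 than that of ITGB4, with a larger SE. ITGA6 (ENSG00000091409) lies on chromosome 2 from 172427354 to 172506282 on the plus strand. ITGA2, the collagen receptor chain, had 103, 95.6 and 58.3 CPM in shNSUN2, against 76.6, 83.3 and 63.4 CPM in FaDu. Replicates 1 and 2 of shNSUN2 were above and replicate 3 below all FaDu libraries (log2 fold change 0.20, SE 0.22, edgeR adjusted p = 0.57). It was 0.42 without shNSUN2 replicate 3 (adjusted p = 0.0574), 0.052 and 0.11 without shNSUN2 replicate 1 or 2, and 0.096 without FaDu replicate 3. ITGA2 (ENSG00000164171) lies on chromosome 5 from 52989326 to 53094779 on the plus strand.

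ITGAV and its partners gave mixed values. ITGAV itself had 56.8, 60.5 and 37.7 CPM in shNSUN2, against 63.9, 72.2 and 67.9 CPM in FaDu (log2 fold change -0.40, SE 0.18, edgeR adjusted p = 0.175). ITGB6, a chain largely restricted to epithelia, had 15.6, 15.5 and 8.68 CPM in shNSUN2, against 19.2, 20.3 and 20.3 CPM in FaDu (log2 fold change -0.59, SE 0.23, edgeR adjusted p = 0.114). For both chains the groups did not overlap, and replicate 3 was far below the other shNSUN2 libraries. Without it the log2 fold changes were -0.21 for ITGAV and -0.35 for ITGB6. ITGB5 had 42.0, 36.5 and 52.2 CPM in shNSUN2, against 35.8, 37.8 and 36.0 CPM in FaDu (log2 fold change 0.26, SE 0.15, edgeR adjusted p = 0.283), with replicate 3 the highest and a log2 fold change of 0.11 without it. ITGB8 was low throughout, at 4.67, 4.36 and 2.01 CPM in shNSUN2 and 4.37, 4.88 and 3.66 CPM in FaDu (log2 fold change -0.22, SE 0.32, edgeR adjusted p = 0.671). It held 1518 estimated counts over the 6 libraries, so its values carry more counting error than those of the others, and its sign turned to 0.074 without shNSUN2 replicate 3. ITGAV (ENSG00000138448) lies on chromosome 2 from 186590065 to 186680901 on the plus strand and ITGB6 (ENSG00000115221) on chromosome 2 from 160099666 to 160200313 on the minus strand. ITGB5 (ENSG00000082781) lies on chromosome 3 from 124761948 to 124901418 on the minus strand and ITGB8 (ENSG00000105855) on chromosome 7 from 20330702 to 20415754 on the plus strand.

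**Figure D3:**
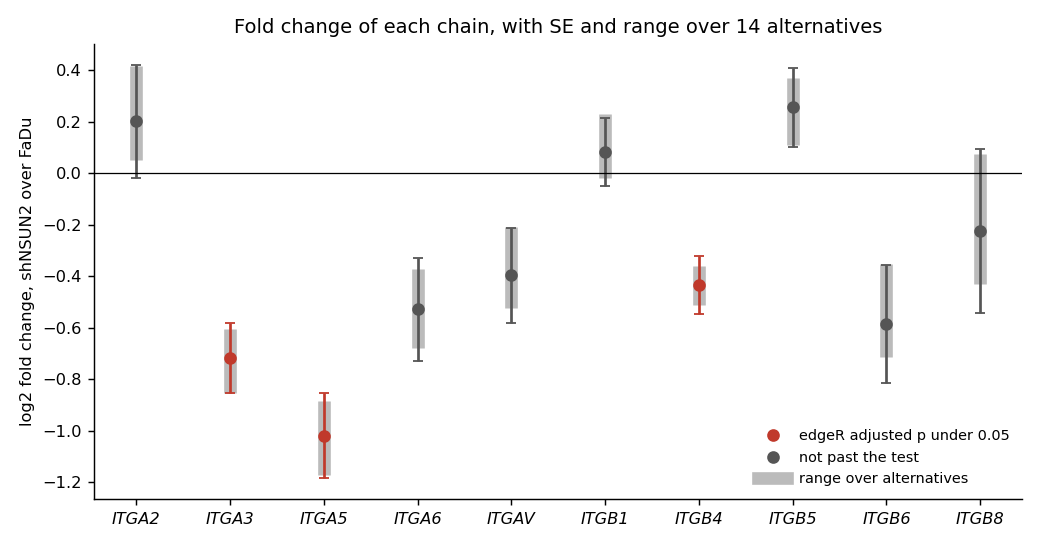
Log2 fold change of shNSUN2 over FaDu for each chain with its SE (points and whiskers), and the range over 14 alternative settings (grey bars). ITGA3, ITGA5 and ITGB4, in red, passed the test, and the grey bar crosses 0 for ITGB1 and ITGB8.

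A correction of every library for GC content and length left ITGA3, ITGA5 and ITGB4 called lower. The fit also took out each library's mean deviation in log2 CPM, so it rescaled the libraries on top of the TMM scaling. Rescaling and the GC and length terms were not separated. The whole step moved the median of all tested genes to a log2 fold change of 0.11, against -0.0069 without it. The genes called over the whole table became 3399 higher and 1926 lower, against 1629 higher and 1903 lower without it. The log2 fold changes of ITGA5, ITGA3 and ITGB4 were then -0.91, -0.61 and -0.36 (edgeR adjusted p = 0.00613, 0.00565 and 0.0137), each below the shifted median by more than those values. ITGB1 had 0.23 (adjusted p = 0.0687), ITGB5 0.34 (adjusted p = 0.0707) and ITGB6 -0.47 (adjusted p = 0.0698). ITGA2 had 0.35 (adjusted p = 0.114), ITGA6 -0.39 (adjusted p = 0.134) and ITGAV -0.22 (adjusted p = 0.135). ITGB8 was near 0, at -0.023.

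Reading the chains as receptors, the balance of alpha to beta mRNA was compared in 9 pairs as the log2 ratio of CPM per kilobase. Gene length cancels in the difference between groups. Each pair had an exact two-sided permutation test over libraries, which cannot give a p under 0.1 with 3 against 3, so no pair could pass at 0.05 and after adjustment over 9 pairs the smallest was 0.18. The ratios of 5 pairs did not overlap between groups.

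Of the 9 pairs, ITGA5 to ITGB1, the chains of the fibronectin receptor, had the largest difference in mRNA ratio. Other alpha chains share ITGB1, so such a ratio does not give the amount of a receptor. The log2 ratio of ITGA5 to ITGB1 was -4.31, -3.59 and -3.57 in shNSUN2, against -2.55, -2.76 and -2.84 in FaDu, a difference of -1.11 (SE 0.26, exact permutation p = 0.1). The mean ratio corresponds to 0.0707 ITGA5 per ITGB1 in shNSUN2 and 0.152 in FaDu. The log2 ratio of ITGA3 to ITGB1 was -1.49, -1.34 and -0.65 in shNSUN2, against -0.26, -0.51 and -0.32 in FaDu, a difference of -0.80 (SE 0.27, exact permutation p = 0.1). The pair ITGAV and ITGB1 differed by -0.49 (SE 0.11, exact permutation p = 0.1). ITGA6 to ITGB1 differed by -0.60 (SE 0.22, exact permutation p = 0.2), with overlapping groups. ITGA2, the collagen chain, was at 0.10 (SE 0.17, exact permutation p = 0.5), with 0.23 without shNSUN2 replicate 3, 0.043 and 0.023 without shNSUN2 replicate 1 or 2 and -0.016 without FaDu replicate 3. Relative to ITGB1, the chains ITGA3, ITGA5 and ITGAV were below FaDu in every shNSUN2 library.

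The mRNA proportion of the 2 chains of the hemidesmosome receptor did not differ beyond the spread between libraries. The log2 ratio of ITGA6 to ITGB4 was -1.45, -1.20 and -2.06 in shNSUN2, against -1.34, -1.74 and -1.35 in FaDu, a difference of -0.10 (SE 0.29, exact permutation p = 0.8). The difference turned to 0.15 without shNSUN2 replicate 3, was -0.28 without shNSUN2 replicate 2, and its SE leaves room for a change of either sign.

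Among the ITGAV receptors, ITGAV to ITGB6 had log2 ratios of 1.06, 1.15 and 1.31 in shNSUN2, against 0.93, 1.02 and 0.94 in FaDu, a difference of 0.21 (SE 0.08, exact permutation p = 0.1). ITGAV to ITGB5 differed by -0.67 (SE 0.36, exact permutation p = 0.1), and by -0.32 without shNSUN2 replicate 3. ITGAV to ITGB8 differed by -0.12 (SE 0.22, exact permutation p = 0.6), with -0.29 without shNSUN2 replicate 3, -0.004 without FaDu replicate 3 and 0.021 without shNSUN2 replicate 1. Of the summed ITGB5, ITGB6 and ITGB8 level per length, ITGB5 made up 64.2%, 61.1% and 80.3% in shNSUN2, against 55.9%, 55.7% and 55.0% in FaDu. ITGB6 made up 32.8%, 35.8% and 18.4% in shNSUN2, against 41.2%, 41.2% and 42.6% in FaDu. The ITGB5 share was above FaDu in all 3 shNSUN2 libraries and highest in replicate 3.

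**Figure D4:**
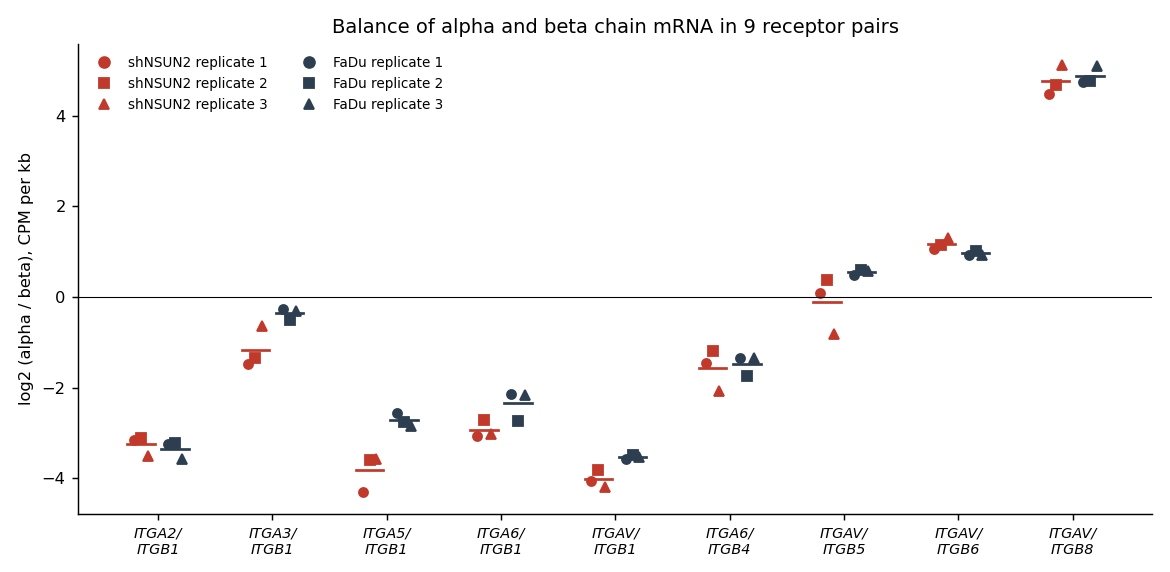
Log2 ratio of alpha to beta chain level (CPM per kilobase) for 9 receptor pairs in each library, with group means as bars. The shNSUN2 libraries lie below the FaDu libraries for ITGA3, ITGA5 and ITGAV against ITGB1 and for ITGAV against ITGB5, and above them for ITGAV against ITGB6.

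Summed over the 5 alpha chains the level was 80.4, 84.8 and 82.8 CPM per kilobase in shNSUN2, against 131, 118 and 128 in FaDu (exact permutation p = 0.1). The 5 beta chains summed to 163, 149.5 and 137 CPM per kilobase in shNSUN2, against 155, 158 and 161 in FaDu (exact permutation p = 0.4). The alpha to beta ratio was 0.494, 0.567 and 0.604 in shNSUN2, against 0.845, 0.743 and 0.796 in FaDu (exact permutation p = 0.1), without overlap. ITGA3 made up 54.6% ± 8.72 of the alpha pool in shNSUN2 and 59.1% ± 0.766 in FaDu (SD, n = 3), and ITGA5 8.65% ± 1.5 in shNSUN2 and 11.6% ± 1.0 in FaDu.

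The rest of the family was scarce. Of 16 further chains, 10 passed the low-count filter, 2 fell and none rose, where 9.97% of all tested genes were lower and 8.54% higher. The median log2 fold change of the 10 was -0.42. That median was -0.089 without FaDu replicate 1, -0.018 with no filter, and turned to 0.026 without shNSUN2 replicate 1. ITGAE, the partner of ITGB7 that binds E-cadherin, had 4.67, 4.87 and 5.97 CPM in shNSUN2, against 8.19, 6.99 and 8.60 CPM in FaDu (edgeR adjusted p = 0.0477). ITGB3, an alternative partner of ITGAV, had 0.059, 0.13 and 0.089 CPM in shNSUN2, against 0.47, 0.46 and 0.57 CPM in FaDu (edgeR adjusted p = 0.0247), so its values rest on few counts. ITGB2, the beta chain of leukocyte integrins, had 8.23, 7.42 and 9.76 CPM in shNSUN2, against 6.30, 5.21 and 5.24 CPM in FaDu, just outside the threshold (edgeR adjusted p = 0.0515). By DESeq2, 1 of the 10 tested chains of this list, ITGB2 included, was higher. The leukocyte partners ITGAL and ITGAM of ITGB2 stayed at or under 0.52 CPM, and ITGAX had 1.69 to 2.36 CPM in shNSUN2 and 2.31 to 4.0 CPM in FaDu. ITGA1, a second collagen chain, averaged 1.16 CPM in shNSUN2 and 2.96 CPM in FaDu (edgeR adjusted p = 0.124). ITGA7, ITGA10, ITGA2B and ITGB7 averaged 0.28 to 1.90 CPM and did not pass the test. ITGA4 was listed at 0 in every library. When any FaDu library or shNSUN2 replicate 1 was left out, no further chain was called lower. Without shNSUN2 replicate 2, 1 was called lower and 1 higher.

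Several ligands of these receptors fell. For this list and those that follow, the shares over all tested genes were 9.97% lower and 8.54% higher. Of 22 laminin, collagen and basement membrane ligands, 11 fell and 1 rose, with a median log2 fold change of -0.49. NID1, a linker of the laminin and collagen networks of basement membranes, fell to 4.395 ± 0.553 CPM in shNSUN2, against 51.0 ± 12.6 CPM in FaDu (SD, n = 3; edgeR adjusted p = 0.000256). COL4A2, a chain of basement membrane collagen, fell to 5.14 ± 0.978 CPM in shNSUN2, against 23.0 ± 2.87 CPM in FaDu, and LAMB1, a laminin beta chain, to 61.6 ± 8.10 CPM in shNSUN2, against 147 ± 7.23 CPM in FaDu (SD, n = 3 each). COL1A2, the gene that rose, is also on the fibroblast list. It was listed at 0 in all FaDu libraries and had 0.56, 0.29 and 0.31 CPM in shNSUN2. The 11 became 6, 4 and 5 when FaDu replicate 1, 2 or 3 was left out. They became 5, and none rose, when shNSUN2 replicate 1 was.

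Of 19 tested ligands with an RGD motif or a role in latent TGF-beta, 6 fell and 1 rose, with a median log2 fold change of -0.49. FBN2, a microfibril protein, fell to 33.1 ± 3.56 CPM in shNSUN2, against 88.1 ± 8.36 CPM in FaDu (SD, n = 3; edgeR adjusted p = 0.00104). EDIL3, a secreted ligand of ITGAV receptors, fell to 3.71 ± 1.18 CPM in shNSUN2, against 21.7 ± 3.77 CPM in FaDu. TGFB1, whose latent form ITGB6 and ITGB8 receptors bind, fell to 17.7 ± 2.65 CPM in shNSUN2, against 48.4 ± 1.58 CPM in FaDu (SD, n = 3; edgeR adjusted p = 0.00111). The 1 gene that rose was TGFB2, whose propeptide lacks the RGD motif. It is named after its values were seen, and had 7.24, 5.94 and 6.52 CPM in shNSUN2, against 0.25, 0.59 and 0.76 CPM in FaDu. Without shNSUN2 replicate 3, 2 of these ligands rose. FN1, the ligand of the ITGA5 receptor, had 19.4 ± 2.11 CPM in shNSUN2 and 17.8 ± 2.12 CPM in FaDu (SD, n = 3; edgeR adjusted p = 0.613), also named after its values were seen.

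Of 9 hemidesmosome partners 4 fell and none rose, with a median log2 fold change of -0.37. KRT5, the basal keratin attached to hemidesmosomes, fell to 543 ± 81.1 CPM in shNSUN2, against 1180 ± 157 CPM in FaDu (SD, n = 3; edgeR adjusted p = 0.00306). COL17A1, a transmembrane collagen of hemidesmosomes, fell to 207 ± 17.8 CPM in shNSUN2, against 340.0 ± 12.1 CPM in FaDu (SD, n = 3; edgeR adjusted p = 0.00514). KRT14, also called lower, has close pseudogene copies and its level is uncertain. PLEC and DST, the linkers to keratin filaments, did not pass. PLEC averaged 442 CPM in shNSUN2 and 499 CPM in FaDu, and DST had 74.1 CPM in shNSUN2 replicate 3, against 236 and 217 CPM in shNSUN2 replicates 1 and 2 and 161 to 218 CPM in FaDu.

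Of 24 tested activators and adapters, which include talins, kindlins and tensins, 1 rose and 2 fell, neither above the share over all tested genes. Their median log2 fold change was 0.04, which turned to -0.014 with plain library totals and -0.016 without shNSUN2 replicate 3. TNS3, a tensin, rose to 122 ± 9.79 CPM in shNSUN2, against 69.2 ± 3.94 CPM in FaDu (SD, n = 3; edgeR adjusted p = 0.00405). TLN1, the main talin, had 232 ± 14.8 CPM in shNSUN2 and 226 ± 12.7 CPM in FaDu (edgeR adjusted p = 0.854; named after its values were seen). With the GC and length correction 4 rose and 3 fell, where 17.8% of all tested genes were higher and 10.1% lower. With FaDu replicate 1 or 2 or shNSUN2 replicate 1 left out none fell, and with FaDu replicate 3 or shNSUN2 replicate 2 left out 1 fell.

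Of 23 focal adhesion signalling genes 2 rose and 2 fell, near the shares over all tested genes, with a median log2 fold change of 0.06. FYN, a kinase of the SRC family, fell to 6.32 ± 1.75 CPM in shNSUN2, against 24.5 ± 2.36 CPM in FaDu, and PAK1, a kinase downstream of RAC1, to 22.9 ± 2.02 CPM in shNSUN2, against 33.0 ± 2.68 CPM in FaDu (SD, n = 3; edgeR adjusted p = 0.00166 and 0.03). NEDD9, a scaffold of focal adhesions, rose to 26.3 ± 2.51 CPM in shNSUN2, against 11.9 ± 1.60 CPM in FaDu (SD, n = 3; edgeR adjusted p = 0.00335). With any FaDu library or shNSUN2 replicate 1 left out, 1 rose and 1 fell. Without shNSUN2 replicate 3, 3 rose and 4 fell, and 3 fell without shNSUN2 replicate 2.

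Of 22 genes of integrin inactivation and trafficking 5 fell and 2 rose, with a median log2 fold change of 0.11. DAB2, an endocytic adapter, fell to 5.17 ± 1.24 CPM in shNSUN2, against 18.3 ± 1.52 CPM in FaDu, and RAB21, a GTPase of integrin traffic, to 51.6 ± 6.05 CPM in shNSUN2, against 84.95 ± 5.40 CPM in FaDu (SD, n = 3 each). With any FaDu library left out 3 fell and none rose, and none rose with shNSUN2 replicate 1 left out, where the share of all genes called higher was also smaller (2.38% to 4.46%).

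Of 22 tested membrane proteins that associate with integrins 5 fell and 2 rose, with a median log2 fold change of 0.08, which was 0.22 with the GC and length correction, 0.016 without shNSUN2 replicate 3 and -0.06 without FaDu replicate 3. SLC3A2, the heavy chain of amino acid transporters that binds the tail of ITGB1, fell to 346 ± 33.5 CPM in shNSUN2, against 646 ± 43.1 CPM in FaDu (SD, n = 3; edgeR adjusted p = 0.00264). LGALS1, a galectin, fell to 118 ± 24.9 CPM in shNSUN2, against 265 ± 38.7 CPM in FaDu. PLAUR, the urokinase receptor, rose to 22.5 ± 2.51 CPM in shNSUN2, against 11.5 ± 2.38 CPM in FaDu (SD, n = 3; edgeR adjusted p = 0.0126). The other gene that rose, CEACAM6, has close copies and its level is uncertain. With any FaDu library left out 2 fell. With the GC and length correction 7 rose, where 17.8% of all tested genes were higher.

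**Figure D5:**
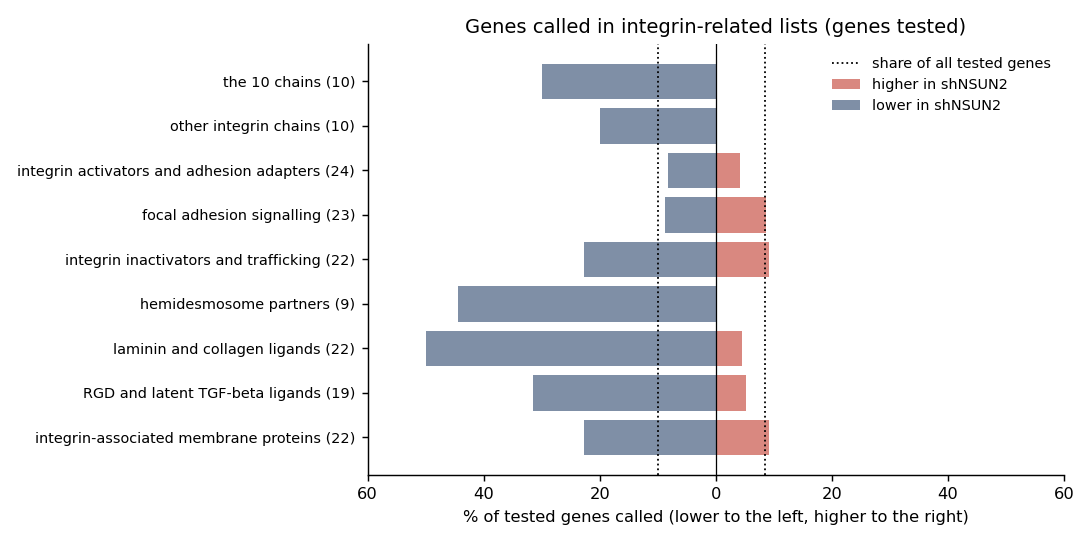
Share of tested genes called lower (left) and higher (right) in shNSUN2, in percent, for the 10 chains and 8 related lists, with the number tested in brackets. Dotted lines mark the shares over all tested genes, 9.97% lower and 8.54% higher.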

How the data were processed

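The authors deposited 1 table of estimated counts per Ensembl gene, in whole numbers, for 6 libraries, and these were used as they stand. HISAT2 2.0, StringTie 1.3.0 and Bowtie 0.12.2 are named without roles, per the submitters' processing notes, which give a mouse build although the identifiers are human. The human build and its annotation, the RNA selection and the strand setting were not given in the sources used here. Small values moved in steps, since 4 was 3.25 to 3.81 times as frequent as the mean of 3 and 5, and no counting interval is given. Library totals, gene totals and the minimum counts of the filter are therefore in estimated counts, which cannot be read as numbers of fragments. Counts per gene do not separate splice forms.

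Symbols came from a gene name table and GENCODE 29 (58817 of 58825 identifiers). Exonic lengths are merged GENCODE 29 exons, and transcript and coding sequences are GENCODE 29's. No table of protein sequences was used here. Exons of other genes overlap 6 of the 10 chains, and those genes held at most 347 counts in all beside any chain.

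Genes were tested over the whole table with edgeR 4.0.16 in R 4.3.3 (glmQLFit and glmQLFTest, robust, TMM scaling, filterByExpr with minimum count 10 and minimum total 15, group alone), which kept 19081 genes, with Benjamini-Hochberg adjustment over all of them. SE is the log2 fold change divided by the square root of F. CPM use TMM-adjusted totals. The procedure was also run on simulated counts, with no result reported here. Those counts lacked the GC and length differences between libraries and the steps in small values, so the run does not cover them. The alternatives were DESeq2 1.42.0, other scalings and filters, a replicate block, a smooth correction for GC content and length (mgcv), and leaving out each library. The smooth kept its intercept, so wherever the correction is used it also rescaled each library by its mean deviation in log2 CPM.

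The members and lists were chosen with earlier results of these data known. From each related list the text names the 3 called genes with the smallest adjusted p and at least 5 CPM in the higher group, beside the chains, NSUN2 and every further chain that passed the filter. Some genes that meet this rule are not reported here. CEACAM6 and KRT14 were passed over as genes with close copies, a choice made after their values were seen.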

Additional observations from a re-analysis of the deposited data

How the results depend on the processing

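Each of the 9 pair differences moved by less than the SD pooled over both groups, in some pairs by more than the FaDu SD alone, and ITGA2 to ITGB1, ITGA6 to ITGB4 and ITGAV to ITGB8 each turned sign with 1 library left out. NSUN2 and ITGA5 were called lower under all 14 alternatives, ITGA3 under 12 and ITGB4 under 7. The count of chains called lower was 1 to 3 when 1 library was left out (3 with all libraries), 2 with the replicate block, 2 with the block and the GC and length correction, and 3 under the other 6 settings. Leaving out 1 library gave ITGB1 log2 fold changes of -0.018 (without shNSUN2 replicate 1) to 0.20 and ITGB8 -0.43 to 0.074 (without shNSUN2 replicate 3), and neither was called. The series' design text speaks of paired experiments without saying what a pair shares. For same-numbered libraries the deviations from the group means had r of -0.036, 0.024 and 0.007, and not every library correlated best with its own number, so the numbers were not taken as pairs. With the replicate block ITGB4 had -0.44 (edgeR adjusted p = 0.0667), and with the block and the correction -0.36 (adjusted p = 0.0624). Over all genes the calls were 1629 higher and 1903 lower, against 969 and 1401 with the block, 2352 and 2471 by DESeq2, 3399 and 1926 with the correction, and 2303 and 1445 with both.

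List counts moved by over 1.5 times as follows, beside those already given for libraries left out. The shares over all tested genes moved too. They were 12.3% higher and 13% lower by DESeq2 and 17.8% and 10.1% with the correction. With the block they were 5.08% and 7.34%, and with both 12.1% and 7.57%. By DESeq2, 4 signalling genes fell, 5 associated membrane proteins rose and 1 further integrin chain rose. With the correction 4 signalling, 4 adapter and 6 trafficking genes, 7 associated membrane proteins and 1 further chain rose. With the block 1 signalling gene rose and 1 fell, 1 trafficking gene rose, and 0 adapters and 0 further chains fell. With both, 4 signalling genes rose and 1 fell, 5 associated membrane proteins and 1 further chain rose, 0 adapters and 0 further chains fell, and 7 basement membrane ligands fell. With a mean of at least 1 CPM, 1 signalling gene rose and 4 fell, 1 adapter fell, 1 further chain fell and 1 rose, and 0 basement membrane ligands rose. With no filter 1 signalling gene and 1 trafficking gene rose, and 1 adapter and 1 further chain fell. With plain totals 1 signalling gene and 1 trafficking gene rose, and with median-of-ratios factors 1 further chain rose. The median log2 fold change ran from 0.012 (plain totals) to 0.20 (the correction) for signalling genes and from 0.058 (without shNSUN2 replicate 1) to 0.26 (the correction) for trafficking genes. With longest transcripts in place of merged exons ITGA3 made up 64.3% of the alpha pool in shNSUN2 and 67.7% in FaDu. Low counts limit ITGB8, ITGB3 and most further chains.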
